A study of Mus musculus with 12 samples.

Results

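The hepatobiliary drug and anion transporters described here are 9 genes, chosen by name: the uptake carriers Slco1a4, Slco1b2, Slco2b1 and Slc22a7 and the ATP-driven efflux pumps Abcc2, Abcc3, Abcc4, Abcb1a and Abcg2. The list was chosen with earlier results of these data known. All 9 are among the 50499 genes of the deposited count table. They were also all among the 11934 genes tested after removal of genes with low counts. Livers of male C57BL/6 mice (substrain given as C57Bl/6NCrl) were sequenced in 12 libraries, 3 in each of 4 groups. From the age of 6 weeks the animals ate chow and drank normal water, or ate a Western diet and drank sugar water. At week 12 of feeding all of them received AAV8 particles by tail vein, and livers were collected 12 weeks after that.

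The particles carried the TBG promoter, which is active in hepatocytes, with either no insert (AAV8-TBG-Null) or a silencing sequence against Aatf (AAV8-TBG-siAATF). The 4 groups are called chow null, chow siAATF, Western null and Western siAATF, so the control groups carried the vector too. The labels give no separate animal for each replicate number, and the p-values therefore measure the spread between these libraries only. RNA came from whole liver, in which fewer cells of a type and less RNA per cell cannot be told apart.

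Hepatocytes take up bile acids, hormones, toxins and drugs from sinusoidal blood through carriers of the SLCO (organic anion transporting polypeptide) and SLC22 families. Pumps of the ABC family on the canalicular membrane, which include the products of Abcc2, Abcb1a and Abcg2, move conjugates and drugs into bile. The pumps encoded by Abcc3 and Abcc4 sit on the basolateral membrane and return conjugates and bile acids to blood. Nuclear receptors such as PXR (Nr1i2), CAR (Nr1i3) and FXR (Nr1h4), the aryl hydrocarbon receptor (Ahr) and the oxidative stress factor NRF2 (Nfe2l2) are known regulators of these genes.

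Library totals ran from 1646853 to 13469819 counts, and 3 counts, used as the floor, were worth 0.185 to 1.69 CPM (counts scaled to a common TMM-corrected library size). The share of Rn18s-rs5, an 18S ribosomal gene, was 0.871% to 50.8% of the counts. It was over 25% in chow null replicates 1 and 2, chow siAATF replicate 1 and Western siAATF replicate 2. Where libraries over 25% are left out below, only replicate 3 of chow null remains. Of 10 hepatocyte markers listed to check the tissue, 9 are in the table, and their summed level was between 51163 and 105794 CPM in every library. Aatf, the gene named by the vector, showed no fall in the siAATF libraries: its log2 fold change was 0.06 ± 0.25 (SE) on the Western diet and 0.11 ± 0.24 on chow. Directions given below for the vector thus rest on the library labels.

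The level of the 9 transporters differed widely. Per kilobase of annotated exon, chow null livers held Slco1b2 at 190 ± 88.1 CPM (SD, n = 3), Abcc2 at 77.7 ± 9.14, Abcc3 at 35.4 ± 16.8 and Slco2b1 at 22.3 ± 4.68. Slco1a4 (8.08 ± 1.99 CPM per kilobase of exon), Abcg2 (7.88 ± 1.52) and Slc22a7 (6.77 ± 1.82) followed and lay within 1 SD of each other, and Slco2b1 lay within the SD of Abcc3. Abcc4 (0.998 ± 0.0761) and Abcb1a (0.374 ± 0.0393) were the lowest. Because reads were counted over whole gene spans, the levels were also set per kilobase of span. On that scale Slc22a7, whose span is short, stood above Slco1a4 and Abcg2 (2.26 ± 0.608 CPM per kilobase of span, against 1.02 ± 0.251 for Slco1a4), and the other 8 kept their order.

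Of the 9 genes, 3 passed the test in at least 1 comparison: Abcb1a, Slc22a7 and Slco1a4. Their group means, in log2 CPM, had ranges of 3.20, 3.61 and 3.49 across the 4 groups, against 0.25 to 1.27 for the other 6. Promoter sequence is shown for Abcb1a and Slco1a4, which changed, and for Abcc2, which is shown as an abundant member whose level stayed within a narrow range. RefSeq windows of 300 bases (250 before the annotated start and 50 after, build GRCm38.p6) were matched for 7 of the 9 genes by symbol. Slc22a7 and Abcc3 had no entry. Capitals mark letters that match the core of the antioxidant response element (ARE core, TGACNNNGC) or the nuclear receptor half-site form AGTTCA on either strand. This form is called the half-site below. Other half-site forms were not searched for, so an unmarked stretch may still hold them.
Abcb1a, chr5:8566841-8567140, plus strand: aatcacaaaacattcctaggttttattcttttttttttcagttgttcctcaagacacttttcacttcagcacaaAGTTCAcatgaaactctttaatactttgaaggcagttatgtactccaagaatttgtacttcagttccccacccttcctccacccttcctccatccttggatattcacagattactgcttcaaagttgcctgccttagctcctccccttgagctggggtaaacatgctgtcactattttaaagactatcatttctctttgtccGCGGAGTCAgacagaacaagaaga
Slco1a4, chr6:141856171-141856470, minus strand: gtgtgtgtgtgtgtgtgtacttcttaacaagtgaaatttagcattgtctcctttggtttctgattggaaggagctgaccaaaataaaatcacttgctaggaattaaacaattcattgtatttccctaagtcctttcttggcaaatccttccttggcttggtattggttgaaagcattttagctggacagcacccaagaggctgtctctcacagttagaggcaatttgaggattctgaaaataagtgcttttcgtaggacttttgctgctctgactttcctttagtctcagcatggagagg
Abcc2, chr19:43782058-43782357, plus strand: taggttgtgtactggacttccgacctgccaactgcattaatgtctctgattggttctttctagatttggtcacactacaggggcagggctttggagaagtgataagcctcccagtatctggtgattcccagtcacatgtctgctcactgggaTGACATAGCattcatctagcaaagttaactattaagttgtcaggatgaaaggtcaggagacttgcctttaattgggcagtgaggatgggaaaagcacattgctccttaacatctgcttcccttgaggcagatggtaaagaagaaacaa

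The Abcb1a window held an ARE core on the minus strand, read on the plus strand as GCGGAGTCA, 26 to 34 bases after the start (the first transcribed base being 0). It also held 1 half-site at -176. The Abcc2 window held 1 ARE core, TGACATAGC, at -98. The Slco1a4 window held neither motif. Among 32851 windows of the same length, 12.4% held an ARE core and 14.0% a half-site. The ARE core was present in 4 of the 12 windows of the members, those of Abcb1a, Abcc2 and both starts of Abcc4, and the half-site in 3, those of Abcb1a, Slco1b2 and 1 start of Slco2b1. The dioxin response core TGCGTG (8.47% of all windows) was in 0 of the 12. The site of HNF1 was searched for in 1 fixed form only (0.140% of all windows), which was also in 0 of the 12. Forms of the HNF1 site that differ from it by any letter were not searched for, so the windows may still hold them. The matches found are letters in a window and were not tested as binding sites.

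The first comparison, Western null against chow null, asks how the diet changed the transporters. Abcb1a, which encodes the drug efflux pump P-glycoprotein together with its copy Abcb1b, rose 11.1-fold, and Slc22a7, which encodes the basolateral organic anion carrier OAT2, fell 5.96-fold. The other 7 members did not pass the test. Thus 2 of 9 were called, 1 in each direction, where 13.2% of all genes tested were called (6.44% higher and 6.77% lower).

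Abcb1a stood at 2.06, 2.26 and 1.83 CPM in chow null (mean 2.05 ± 0.215, SD, n = 3) and at 19.3, 18.4 and 27.8 CPM in Western null (21.8 ± 5.22). All 3 Western null libraries lay far above all 3 chow null libraries, and these levels came from 43 and 403 counts. The log2 fold change was 3.47 ± 0.48 (SE; quasi-likelihood test of edgeR, adjusted p by Benjamini-Hochberg = 0.000286). The call held without any single one of the 12 libraries, with log2 fold changes of 3.23 to 3.6. Abcb1a lies on chromosome 5 (GRCm39, 8617091 to 8798575, plus strand), and 32.6% of its span overlaps other genes, and how reads there were assigned is not given in the sources used here.

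Abcb1b, the neighbouring copy (chromosome 5, 8848147 to 8916314), is 88.2% identical to Abcb1a over the coding sequence, and 20.3% of all 50-base windows of the Abcb1a coding sequence occur unchanged in Abcb1b. Reads of 50 bases or fewer that lie within those windows cannot be told apart by their letters, while longer reads may be. Abcb1b had a mean of 1.18 ± 1.49 CPM in chow null and 1.02 ± 1.03 in Western null (log2 fold change -0.18 ± 0.90, same test, adjusted p = 0.916). The copy was at or near the floor in several libraries, and the difference between the copies in their response was not tested.

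Markers of other cell types also differed between the groups in which Abcb1a changed. The summed level of 9 cholangiocyte markers was 37.3 to 48.6 CPM in chow null, 109 to 239 in Western null and 34.7 to 53.1 in Western siAATF, and 4 of the 7 tested rose with the diet. Summed stellate cell and fibroblast markers (10 listed, Lrat at 0 in every library) were 203 to 353, 1170 to 1629 and 300.2 to 816 CPM in the same groups, and 6 of 9 rose. Macrophage markers stood at 280.3 to 468, 746 to 1203 and 438 to 1105 CPM, with 8 of 12 higher, and endothelial markers at 259 to 293, 379 to 462 and 328 to 402, with 4 of 9 higher. Diet estimates were above 0 for 5 of 7 cholangiocyte, 9 of 9 stellate, 11 of 12 macrophage and 7 of 9 endothelial markers tested. For 1 cholangiocyte marker all Western null libraries lay below all chow null libraries. The summed level of 8 markers listed for lymphocytes was 8.47 to 33.8, 31.1 to 36.5 and 8.80 to 68.3 CPM. Of these Ms4a1 was at 0, and only Ptprc had counts high enough to be tested and was not called. Hepatocyte markers were lower in Western null in sum, at 58018 to 65854 CPM against 80170 to 105794 in chow null, with 1 of 9 called. The part of these cell types in the change of Abcb1a was not tested.

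Slc22a7 stood at 14.7, 10.2 and 17.8 CPM in chow null (14.2 ± 3.83) and at 0, 4.09 and 2.60 CPM in Western null (2.23 ± 2.07). The groups did not overlap. The Western null libraries gave 41 counts in all, and the one at 0 counts allows up to 1.48 CPM at the floor of 3 counts. The log2 fold change was -2.57 ± 0.65 (edgeR quasi-likelihood test, adjusted p = 0.0201). The call was lost without chow null replicate 1 (log2 -2.57), without chow null replicate 3 (-2.38) and without Western null replicate 3 (-2.67). Slc22a7 spans 46743111 to 46749403 on the minus strand of chromosome 17, and 11.5% of it overlaps Gm36541 on the other strand.

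**Figure D1:**
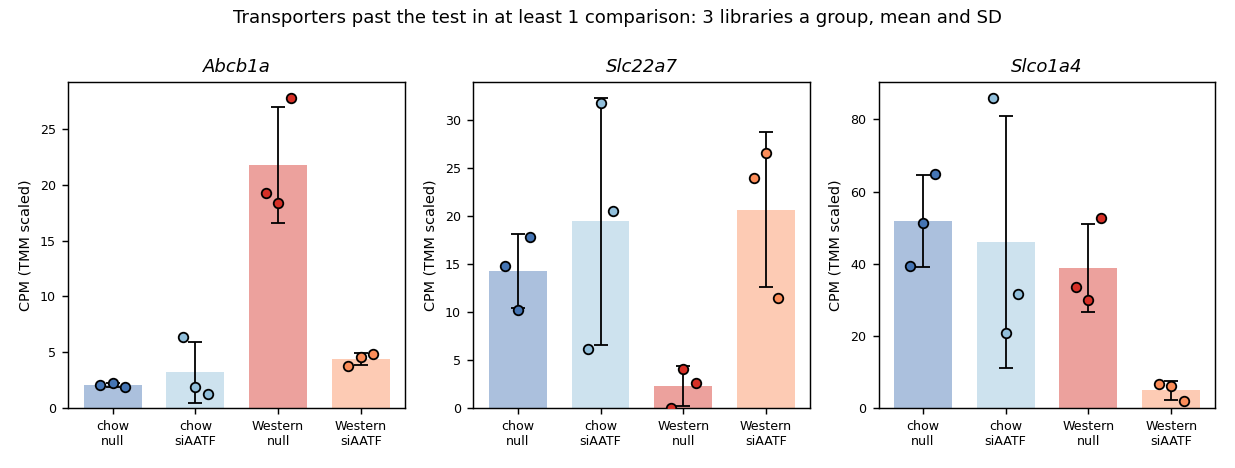
Bars show the mean level of Abcb1a, Slc22a7 and Slco1a4 in CPM on linear axes from 0, error bars the SD and points the 3 libraries of each group. Abcb1a is highest in Western null (18.4 to 27.8 CPM), Slc22a7 is lowest there (0 to 4.09 CPM), and Slco1a4 is lowest in Western siAATF (1.76 to 6.63 CPM).

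The uptake carriers of the SLCO family did not pass in this comparison. Slco1b2, the main hepatic carrier of this family for bilirubin conjugates, statins and toxins, stood at 1339, 477 and 996 CPM in chow null and at 832, 923 and 858 in Western null (log2 fold change -0.11 ± 0.46, 95% interval -1.08 to 0.87). Slco2b1, a carrier of steroid sulphates, stood at 101, 154 and 144 against 104, 113 and 111 CPM (-0.28 ± 0.25). Slco1a4, a carrier of bile acids and cardiac glycosides, stood at 39.3, 51.4 and 64.8 against 33.6, 30.0 and 52.7 CPM (-0.40 ± 0.46, 95% interval -1.39 to 0.59). The groups overlapped for all 3.

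Among the canalicular pumps, Abcc2 for the conjugate pump MRP2 stood at 720, 574 and 695 CPM in chow null and at 481, 555 and 608 in Western null (-0.27 ± 0.25, 95% interval -0.79 to 0.24). Abcg2, the breast cancer resistance protein gene, stood at 78.5, 56.5 and 57.8 against 80.5, 92.3 and 92.5 CPM (0.46 ± 0.26, edgeR quasi-likelihood test, adjusted p = 0.252). For Abcg2 the groups did not overlap, which held for 34.7% of all genes tested (17.7% higher and 17.0% lower). The basolateral pump gene Abcc3 (MRP3) stood at 103, 295 and 207 against 358, 293 and 333 CPM (0.71 ± 0.60, same test, adjusted p = 0.472). Abcc4 (MRP4) stood at 6.51, 6.78 and 5.83 against 11.8, 6.13 and 9.25 CPM (0.51 ± 0.51). The median log2 fold change of the 9 members was -0.11, and that of all genes tested -0.03.

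**Figure D2:**
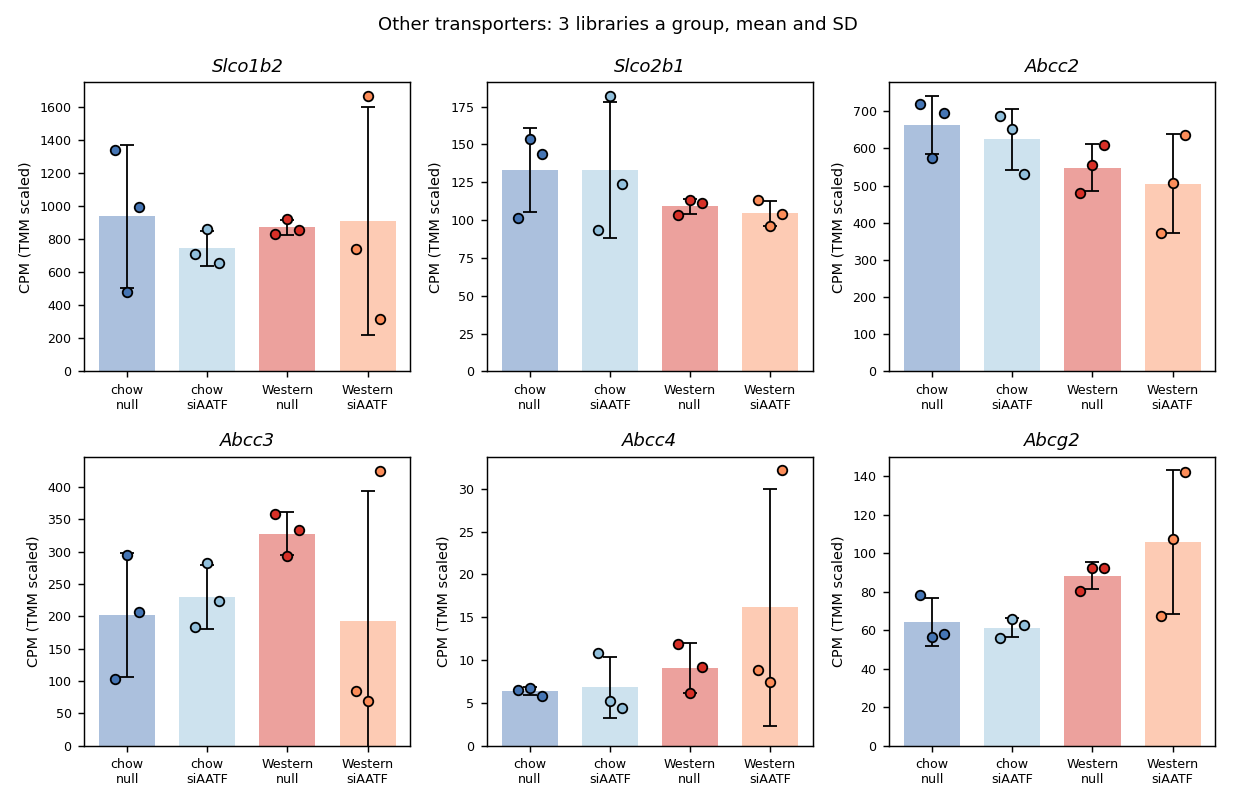
Bars show mean CPM on linear axes from 0, error bars the SD and points the 3 libraries a group, for the 6 members that passed no test. Groups overlap in most panels, and in Western siAATF 1 library stands far above the other two for Abcc3 (425 CPM) and Abcc4 (32.1 CPM).

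Of the other hepatobiliary transporters listed for comparison (43 genes, 31 tested), 1 rose and 5 fell with the diet. Slc22a28, Slc22a30, Slc22a27 and Slc22a23 belong to the same carrier family as Slc22a7. Slc22a28 fell from 18.9 ± 9.23 to 0.853 ± 0.766 CPM, Slc22a30 from 179 ± 64.1 to 38.3 ± 3.05 and Slc22a23 from 204 ± 52.2 to 99.5 ± 15.6. Slc22a27 rose from 1.4 ± 0.753 to 8.65 ± 2.13 CPM, so this family moved in both directions. The bile acid uptake carrier gene Slc10a1 (NTCP) fell from 267 ± 37.1 to 136 ± 22.5 CPM (edgeR quasi-likelihood test, adjusted p = 0.0463).

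The fifth to fall was Slco1a1, a carrier known to be higher in male than in female mouse liver. It stood at 309, 108 and 206 CPM in chow null and at 17.3, 6.13 and 18.8 in Western null (-3.87 ± 0.72 in log2, edgeR quasi-likelihood test, adjusted p = 0.00651). Slco1b2 (141575178 to 141632372, plus strand), Slco1a4 (141751164 to 141802011, minus strand) and Slco1a1 (141853007 to 141892688, minus strand) are neighbours on chromosome 6. Coding sequences of Slco1a4 and Slco1a1 are 86.6% identical, with 4.28% of 50-base windows of Slco1a4 shared. Slco1a5, 89.3% identical to Slco1a4, was at 0 counts in every library, and Slco1a6, 85% identical, had 3 counts or fewer in each group. Slco1b2 is 60.3% identical to Slco1a4 and shares no such window.

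Of 26 regulators and classic target genes, 2 rose and 3 fell with the diet. Nqo1 and Srxn1, known targets of NRF2, rose by 2.08 ± 0.42 and 1.55 ± 0.30 on the log2 scale. Gclc, another NRF2 target in the list, was not called. The liver transcription factor genes Nr5a2 (-1.02 ± 0.22) and Hnf4a (-0.77 ± 0.24) fell, as did Cyp1a2, a drug-metabolising P450 (-1.63 ± 0.44). The receptor and sensor genes themselves did not pass: Nfe2l2 was at 0.36 ± 0.27, Ahr at 0.27 ± 0.36, Nr1i2 at 0.22 ± 0.28, Nr1i3 at -0.000769 ± 0.383 and Nr1h4 at -0.42 ± 0.26. Whether these genes bear on the transporters was not tested.

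The second comparison, Western siAATF against Western null, asks what the vector labelled siAATF changed on the Western diet. Slco1a4 was 7.62-fold lower and Abcb1a 5.10-fold lower, and Slc22a7 was 8.52-fold higher. The 6 other members did not pass. Thus 3 of 9 members were called, 1 higher and 2 lower, where 0.871% of all genes tested were called (0.31% higher and 0.561% lower). The members were chosen with earlier results of these data known, so these shares are a description and not a test of the list. Groups did not overlap for the same 3 members, 1 higher and 2 lower, against 7.69% and 7.87% of all genes tested. This comparison and the first share the Western null libraries, so opposite signs in them are not independent.

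Slco1a4 stood at 33.6, 30.0 and 52.7 CPM in Western null (38.8 ± 12.2) and at 6.63, 6.13 and 1.76 CPM in Western siAATF (4.84 ± 2.68). The groups lay wide apart, with 743 against 61 counts, and the lowest library held 4 counts. The log2 fold change was -2.93 ± 0.54 (edgeR quasi-likelihood test, adjusted p = 0.0196). The call was lost without Western null replicate 1 (-3.05) or replicate 3 (-2.62) and without Western siAATF replicate 1 (-3.18) or replicate 2 (-3.08), and it was lost with limma-voom (-2.97, adjusted p = 0.0557). In Western siAATF the level of Slco1a4 per kilobase of exon, 0.755 ± 0.418 CPM, had come down beside that of Abcb1a (0.799 ± 0.102), the lowest member in chow null.

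Abcb1a stood at 3.76, 4.54 and 4.84 CPM in Western siAATF (4.38 ± 0.558), below all Western null libraries (18.4 to 27.8 CPM) and above all chow null libraries (1.83 to 2.26 CPM). The log2 fold change from Western null was -2.35 ± 0.45 (edgeR quasi-likelihood test, adjusted p = 0.0182). The call was lost without Western null replicate 1 (-2.45) or replicate 3 (-2.11) and without Western siAATF replicate 1 (-2.24). Abcb1b stood at 2.08 ± 1.22 against 1.02 ± 1.03 CPM (0.80 ± 0.91). The cholangiocyte and stellate marker sums given above were also lower in Western siAATF, with no overlap with Western null, while the macrophage, endothelial and lymphocyte sums overlapped. Called lower were 1 of 7 cholangiocyte markers (Spp1), 2 of 12 macrophage markers, 0 of 9 stellate markers and 0 of 9 endothelial markers. Their part in the change of Abcb1a was not tested.

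Slc22a7 stood at 23.9, 26.6 and 11.4 CPM in Western siAATF (20.6 ± 8.06), above all Western null libraries (0 to 4.09 CPM). The log2 fold change was 3.09 ± 0.66 (edgeR quasi-likelihood test, adjusted p = 0.0447), close to the threshold. It was called without 3 of the 12 libraries in turn and lost without the other 9, at log2 values of 2.71 to 3.43 with the same sign. It was also lost with limma-voom (3.40), with a minimum of 1 CPM in 3 libraries (3.07), when only the Western groups were fitted (3.10), and when libraries in which Rn18s-rs5 took over 25% were left out (2.88). The rise in level is therefore large in these libraries, and its call depends on the fit.

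Abcc3 did not pass in all libraries (-0.78 ± 0.60, same test, adjusted p = 0.712). Its Western siAATF levels were 84.3, 68.5 and, in replicate 3, 425 CPM, against 293 to 358 in Western null. Without Western siAATF replicate 3 the log2 fold change was -2.12, and it passed (edgeR quasi-likelihood test, adjusted p = 0.00121), as did the comparison with chow siAATF (-1.63, adjusted p = 0.00724). In Western siAATF replicate 3 Abcc4 (32.1 CPM against 8.85 and 7.49) and Abcg2 (142 against 67.7 and 107) were also the highest of the group, and Slco1b2 (318 against 741 and 1665), Slco1a4 and Slc22a7 the lowest. That library had 1989409 counts and the smallest 18S share of all libraries, 0.871%, and the part of either in these values was not tested. The number of members called against Western null was 4 without it, 0 without Western null replicate 1, Western null replicate 3 or Western siAATF replicate 1, and 1 without Western siAATF replicate 2.

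The members that did not pass had log2 fold changes between -0.78 and 0.79. Abcc2, at 371, 508 and 637 CPM in Western siAATF, differed from Western null by -0.12 ± 0.25 (95% interval -0.64 to 0.40), and Slco2b1, at 113, 96.0 and 104 CPM, by -0.07 ± 0.25 (-0.60 to 0.47). These intervals leave out a change of the size seen for Slco1a4. Slco1b2 differed by 0.06 ± 0.46, Abcg2 by 0.25 ± 0.25 and Abcc4 by 0.79 ± 0.50. The median of the 9 was -0.07, against 0.06 over all genes tested.

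**Figure D3:**
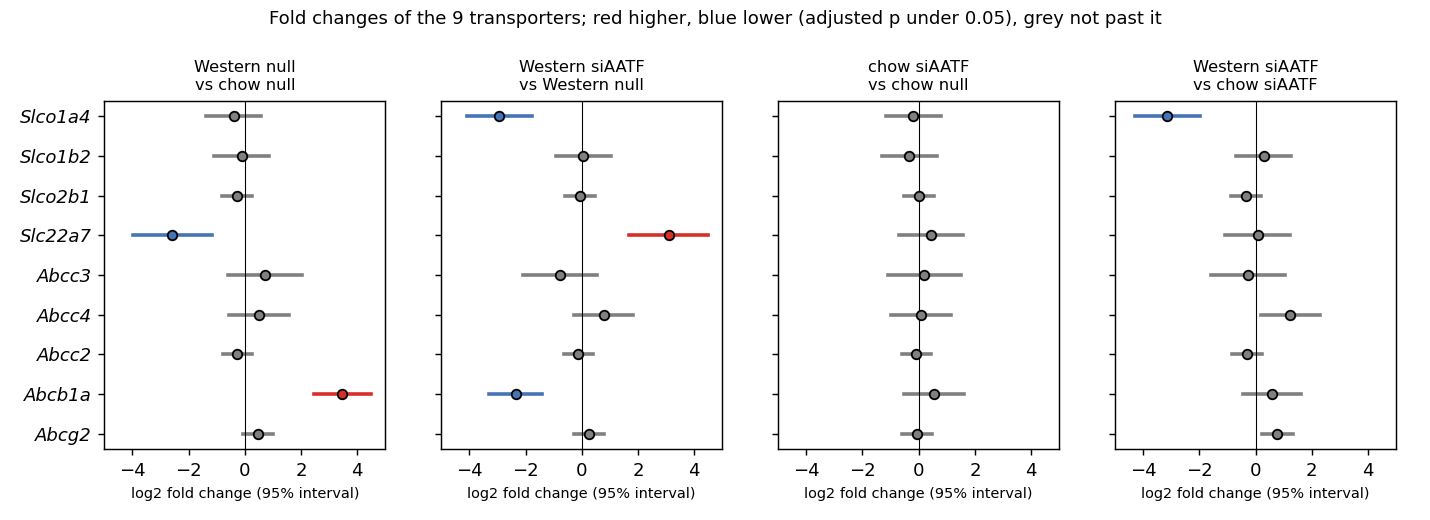
Points show log2 fold changes and lines their 95% intervals for the 9 transporters (rows, uptake carriers first) in 4 comparisons (panels). Red and blue mark adjusted p under 0.05 for higher and lower levels, and the coloured members are Slc22a7 and Abcb1a for the diet, Slco1a4, Slc22a7 and Abcb1a for the vector on the Western diet, none on chow, and Slco1a4 for the diet under siAATF.

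Of the 31 other transporters tested, edgeR called 0 in this comparison, with 5 at an unadjusted p under 0.05 (1271 of 11934 genes tested). DESeq2 called 2 and limma-voom 0. Slco1a1, which neighbours Slco1a4, stood at 68.1, 157 and 17.2 CPM in Western siAATF against 6.13 to 18.8 in Western null (2.51 ± 0.69, edgeR quasi-likelihood test, adjusted p = 0.165). Its estimate thus had the opposite sign to that of Slco1a4, with overlapping groups, and the difference between the neighbours was not tested. Among the 26 regulators and targets only Srxn1 was called by edgeR, and it was lower (-1.32 ± 0.30). Of this list 6 were at an unadjusted p under 0.05 with edgeR, and DESeq2 and limma-voom each called 2. Groups did not overlap for 1 higher and 5 lower, against 7.69% and 7.87% of all genes tested. Nr1i2 was at -0.11 ± 0.28, Nr1i3 at 0.03 ± 0.38, Nr1h4 at 0.20 ± 0.26, Nfe2l2 at -0.26 ± 0.27 and Ahr at -0.53 ± 0.36.

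The third comparison, chow siAATF against chow null, asks what the vector changed on chow. No member was called by edgeR (0 of 9, with 0 at an unadjusted p under 0.05), nor by DESeq2 or limma-voom, and the share called over all genes was 0%. Slco1a4 stood at 86.0, 20.7 and 31.6 CPM in chow siAATF, Slc22a7 at 6.09, 31.7 and 20.5, and Abcb1a at 6.35, 1.91 and 1.25. Chow siAATF replicate 1 was thus the highest of its group for Slco1a4 and Abcb1a and the lowest for Slc22a7, and its 18S share was 41.4%.

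The 95% interval of the log2 fold change on chow ran from -1.17 to 0.79 for Slco1a4, from -0.70 to 1.59 for Slc22a7 and from -0.51 to 1.61 for Abcb1a. It was narrowest for Abcc2 (-0.60 to 0.43, 688, 653 and 532 CPM) and Slco2b1 (-0.52 to 0.54, 93.1, 182 and 124 CPM). Abcc3 stood at 184, 283 and 224 CPM, Slco1b2 at 712, 862 and 657, Abcg2 at 55.8, 65.9 and 62.5, and Abcc4 at 10.8, 5.17 and 4.39. All of these groups overlapped with chow null, where 8.56% of all genes tested did not (4.25% higher and 4.32% lower). Of the 31 other transporters and the 26 regulators and targets, edgeR called 0, and DESeq2 and limma-voom also called 0. With edgeR 1 in each list was at an unadjusted p under 0.05, as were 285 of the 11934 genes tested.

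Under the siAATF vector, Western diet against chow asks whether the diet acted on the transporters where Western null was not part of the comparison. Slco1a4 was lower, at 1.76 to 6.63 CPM in Western siAATF against 20.7 to 86.0 in chow siAATF (log2 fold change -3.14 ± 0.54, edgeR quasi-likelihood test, adjusted p = 0.0134). This was 1 of 9 members, where 1.48% of all genes tested were called (0.763% higher and 0.721% lower). The call was lost without Western siAATF replicate 2 (-3.29), when only the siAATF groups were fitted (-3.14), and when libraries in which Rn18s-rs5 took over 25% were left out (-2.46). Without chow siAATF replicate 1, the highest library, the log2 fold change was -2.34.

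Slc22a7 differed by 0.07 ± 0.53 between these groups (95% interval -1.07 to 1.22), and Abcb1a by 0.58 ± 0.49 (-0.45 to 1.60). Abcg2 was higher in every Western siAATF library than in every chow siAATF library (67.7 to 142 against 55.8 to 65.9 CPM, 0.78 ± 0.26), and did not pass (edgeR quasi-likelihood test, adjusted p = 0.144). Of all genes tested, 17.6% had groups that did not overlap here, 9.24% higher and 8.36% lower; of the members, Abcg2 was higher and Slco1a4 lower. Abcc4 was at 1.23 ± 0.50 (same test, adjusted p = 0.242), with overlapping groups. Of the other 31 transporters edgeR called 0, with 7 at an unadjusted p under 0.05 (1812 of 11934 genes tested). DESeq2 called 5 of these 31 transporters and limma-voom 0. Cyp2b10, the classic CAR target, was the only one of 26 regulators and targets called by edgeR. Its 79 counts in chow siAATF stood against 0 in the Western group. With counts pooled over each group and a floor of 3 counts for the Western group, the level was 11.9-fold lower. Of the 79 counts, 58 came from chow siAATF replicate 2, and the pooled value leaves out the spread between libraries. Of this list 7 were at an unadjusted p under 0.05 with edgeR, and DESeq2 called 5 and limma-voom 0.

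The test of the interaction asks whether the diet effect differed between the vectors. edgeR called 0 of 9 members (0.193% of all genes tested were called, 0.101% above 0 and 0.0922% below). At an unadjusted p under 0.05 were 1093 of the 11934 genes tested and 3 members. These were Abcb1a (-2.90 ± 0.67, edgeR quasi-likelihood test, adjusted p = 0.105), Slco1a4 (-2.74 ± 0.70, same test, adjusted p = 0.165) and Slc22a7 (2.65 ± 0.84, same test, adjusted p = 0.326). DESeq2 called Slco1a4 and Abcb1a, and limma-voom called 0. With edgeR and no filter on low counts all 3 of these members were called, and without Western siAATF replicate 3 Abcc3 and Abcb1a were called.

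**Figure D4:**
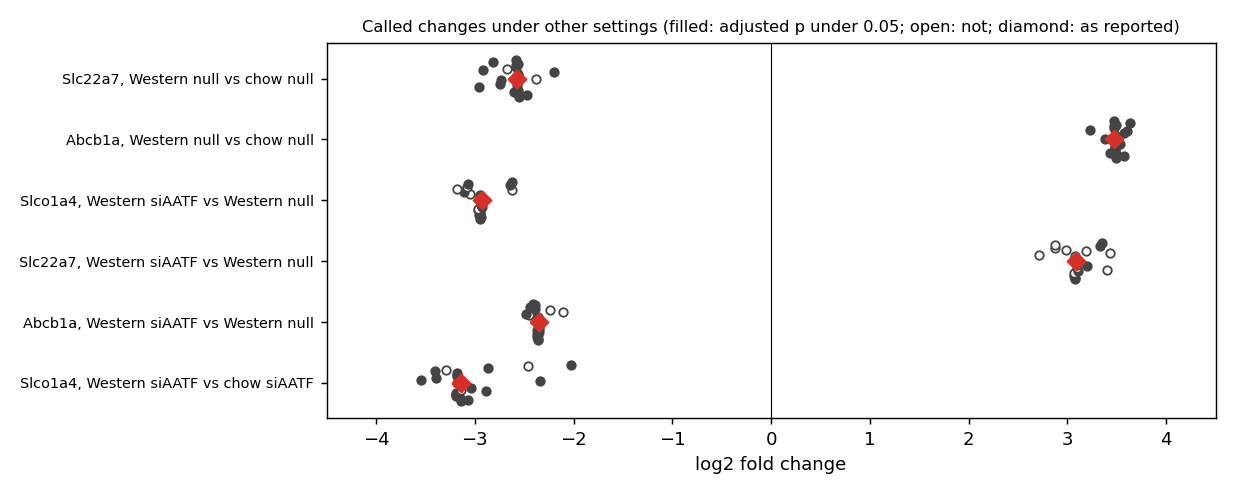
Diamonds show the 6 called log2 fold changes as reported, and circles the same values under the other settings and without single libraries, filled where adjusted p stayed under 0.05. All circles of a row lie on the same side of 0, and open circles are most frequent for Slc22a7 in Western siAATF against Western null.

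The genes most like the most variable members were taken by Pearson r of log2 CPM over the 12 libraries, which all points share, so r is a description only. For Slc22a7 they were Ido2 (r = 0.95), Mob3c (0.93), Polr3g (0.92) and Fras1 (0.92). Ido2 had group means of 56.3 CPM in chow null, 61.8 in chow siAATF, 38.3 in Western null and 58.7 in Western siAATF. Fras1 had 11.5, 11.4, 2.42 and 8.24 CPM in the same order. For Slco1a4 they were Shank2 (r = 0.89), Myo1e (0.89), Adamts6 (0.88) and Pkp4 (0.87), and the means of Shank2 were 61.4, 61.8, 62.4 and 27.6 CPM. Among the members themselves, r over the 12 libraries ran from -0.78 for Slc22a7 with Abcb1a to 0.63 for Abcc4 with Abcg2, so the 9 did not vary as 1 group.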

How the data were processed

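Counts of reads per gene were deposited as whole numbers by the authors, with no normalization. STAR 2.7.11, featureCounts 2.0.1, R 4.3.2, DESeq2 1.42.0 and build GRCm39 are named in the submitters' processing notes. Libraries were made from column-extracted RNA (SMART-Seq chemistry), according to the protocols per the labels. Gene length in the table equals the whole span, so introns were counted. No strand setting is given in the sources used here. Members and gene lists were chosen with earlier results of these data known. Genes were kept with filterByExpr and tested with edgeR 4.0.16 (R 4.3.3) by quasi-likelihood in 1 fit of 12 libraries (8 residual degrees of freedom). P-values were adjusted by Benjamini-Hochberg over all 11934 genes, with a threshold of 0.05. Standard errors are the log2 fold change divided by the root of F. Replicate pairs differed by at least 10.3 in chi-square per degree of freedom, so no library was merged. Floors and counts cover counting error only, since reads carry no molecular identifiers. Alternatives included DESeq2 1.42.0, limma 3.58.1 (voom), other scalings and filters, a replicate block and leaving out libraries. Named genes are the members, the called genes of the lists with the smallest adjusted p, preset regulators and copies, and the 4 genes with the highest r. Exon lengths and coding sequences (longest open reading frame) came from GENCODE M21. As a check of the code only, the edgeR fit was run on counts simulated with the spread estimated from these same data.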

Additional observations from a re-analysis of the deposited data

How the results depend on the processing

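In 23 alternatives (22 for the interaction), the 6 called log2 fold changes of Abcb1a, Slc22a7 and Slco1a4 kept their sign. Among these alternatives, the setting without libraries over 25% Rn18s-rs5 left only replicate 3 in chow null. Only Abcb1a in Western null against chow null was called in all 23 (3.23 to 3.63, highest adjusted p 0.00538, edgeR or the named tool). Deviations from the group means correlated at -0.38 to 0.26 in 18 same-number pairs and at -0.31 to 0.46 in 36 pairs of different number. The same-number pairs did not stand above the others, which cannot settle whether the libraries are paired by number. With the numbers as a replicate block the count of members called was the same in every comparison, while calls over all genes went from 1577 to 1157 (diet under the null vector), 104 to 64 (Western siAATF against Western null), 177 to 71 (Western siAATF against chow siAATF) and 23 to 14 (interaction).

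In Western siAATF against Western null the count of members called went from 3 to 1 with limma-voom, to 2 with the 1 CPM filter, with only those groups fitted and without libraries over 25% Rn18s-rs5, and to 4 with Western siAATF replicate 3 and chow siAATF replicate 1 left out together, a setting chosen after seeing the data. In Western siAATF against chow siAATF it became 0 with only those groups fitted, 0 when libraries with over 25% Rn18s-rs5 were left out, and 2 with that pair of libraries left out. For the interaction it became 3 without a low-count filter, 2 with DESeq2 and 2 with the pair left out. Leaving out each replicate in turn gave 1 to 2 members called in Western null against chow null, 0 to 4 in Western siAATF against Western null, 0 in chow siAATF against chow null, 0 to 2 in Western siAATF against chow siAATF and 0 to 2 for the interaction. Over all genes the counts then ranged from 658 to 2250, 26 to 413, 0, 34 to 737 and 2 to 295, and under the other settings from 1031 to 2284, 53 to 572, 0 to 33, 17 to 836 and 3 to 331. The cause was not tested.

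Only estimates that were not called reversed, 55 in all. With limma-voom, Slco1b2 was at 0.041 (diet under the null vector), -0.26 (Western siAATF against Western null), -0.020 (Western siAATF against chow siAATF) and -0.061 (interaction), and on chow Slco2b1 was at -0.032 and Abcc4 at -0.10. With the block, Slco1b2 was at -0.064 (Western siAATF against Western null) and Slco2b1 at -0.012 on chow. When libraries with over 25% Rn18s-rs5 were left out, Slco1b2 was at -0.71 and Slco2b1 at 0.0012 (Western siAATF against Western null), Abcc4 at -0.24, Abcb1a at -0.10 and Abcg2 at 0.18 (chow), Slco1b2 at -0.52, Slc22a7 at -0.53 and Abcc3 at 0.014 (Western siAATF against chow siAATF), and Slco1b2 at -0.35 and Abcc2 at 0.090 (interaction). With the 2 libraries left out together, Abcc4 was at -0.13 and Abcg2 at -0.013 (Western siAATF against Western null), Abcc4 at -0.38 and Abcb1a at -0.24 (chow), Slc22a7 at -0.075 (Western siAATF against chow siAATF) and Abcg2 at -0.012 (interaction).

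Leaving out single replicates gave Slco1b2 -0.43 to 0.24 for the diet under the null vector. In Western siAATF against Western null it gave Slco1b2 -0.72 to 0.46, Abcc2 -0.33 to 0.065, Abcc4 -0.16 to 1.14 and Abcg2 -0.031 to 0.49. On chow it gave Slco1a4 -1.0 to 0.20, Slco1b2 -0.65 to 0.016, Slco2b1 -0.27 to 0.21, Slc22a7 -0.11 to 0.85, Abcc2 -0.18 to 0.052, Abcc3 -0.11 to 0.57, Abcc4 -0.38 to 0.32, Abcb1a -0.26 to 0.94 and Abcg2 -0.15 to 0.11. In Western siAATF against chow siAATF it gave Slco1b2 -0.50 to 0.66, Slc22a7 -0.33 to 0.62 and Abcc3 -1.63 to 0.13. For the interaction it gave Slco1b2 -0.38 to 0.76, Slco2b1 -0.28 to 0.20, Abcc2 -0.27 to 0.15 and Abcc4 -0.25 to 1.17. Depth limits the low members: Slc22a7 in Western null and Slco1a4 and Abcb1a in Western siAATF rest on 41, 61 and 48 counts.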
